A study of Drosophila melanogaster with 6 samples.

Results

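Retinal glia genes were read in RNA from larval eye imaginal discs, the epithelial sheets that give rise to the fly eye. The set holds 8 genes that mark glia or serve them, *repo*, *moody*, *Gli*, *loco*, *Gs2*, *Eaat1*, *gcm* and *nrv2*, each taken by the symbol the array's annotation gives to its probe set. Of these, 7 were read, among 11982 genes in all, and each of the 7 had 1 probe set. No probe set is named for *Eaat1*, the glutamate transporter of glia, in the annotation used, so it was not analysed here. Discs came from wandering larvae of the third instar raised at 25°C. The 3 mutant arrays carried the genotype *w*; *mir-998[exc222]*, homozygous for an imprecise excision that leaves a piece of a P element within the *mir-998* hairpin, and the 3 wild type arrays were *w1118*. *mir-998* lies in an intron of *dE2f1*, and the study profiled the discs to find genes whose expression depends on this microRNA. Whole discs were used, so glia contributed only part of the RNA. The arrays of a genotype are labelled as biological replicates, but no separate crosses are named, and the p-values therefore reflect only how far these samples spread, part of which may be technical.

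Glia of the eye disc are born mainly in the optic stalk and brain and migrate onto the basal side of the disc, where they meet photoreceptor axons and wrap them. The transcription factor Gcm switches cells to the glial fate in the embryo, and its target Repo, a homeodomain protein, then maintains that fate. The outer glial layers form a barrier sealed by septate junctions, which depends on the receptor Moody and its G protein signaling, while inner glia wrap axons and recycle neurotransmitters. Several of these genes are not limited to glia. *Gli*, *nrv2* and the other septate junction genes also serve the epithelium of the disc, and *gcm* also acts in blood cells.

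Expression is given on the log2 scale as the rma algorithm returns it, where a difference of 1 is a doubling. Probe sets differ in affinity, so a value of 1 gene cannot be set against that of another, and each was read only against its own values on other arrays and against the array as a whole. Over all tested probe sets the median value was 5.28 and the first quartile 4.28, and control probe sets for the bacterial *trp* operon lay at 3.63 to 3.72 on average. The wild type arrays differed more among themselves than the mutant arrays did, with a median SD per probe set of 0.08 in the mutant and 0.13 in wild type. On wild type replicate 3 the 12 eye disc markers, among them *ey*, *so*, *eya* and *gl*, averaged 9.44, against 9.93 and 10.15 on the other wild type arrays, and on the 3 mutant arrays they averaged 10.10 to 10.16. All 12 lay above the median of all values in wild type, as the label of the tissue implies. Fat body and salivary gland genes, which belong to tissues next to the disc, also varied widely between arrays of 1 genotype. The 4 fat body markers averaged 9.16, 6.65 and 5.86 on mutant replicates 1, 2 and 3. On wild type replicates 1, 2 and 3 they averaged 9.54, 7.28 and 6.30, in the same falling order. The 8 salivary gland markers averaged 12.19, 9.04 and 9.19 in the mutant and 9.02, 11.23 and 11.56 in wild type, with no shared order. The median log2 difference was -0.53 for fat body and -0.16 for salivary gland markers. Its sign depended on single arrays, since it was 0.33 and -1.23 without wild type replicate 1, and -1.15 and 0.61 without wild type replicate 3, in the same order.

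Wild type eye discs held a clear signal for the glial identity gene *repo* and for most genes of glial function. In wild type the mean was 8.63 ± 0.18 (log2, SD, n = 3) for *repo*, 9.26 ± 0.22 for *moody*, 10.72 ± 0.16 for *loco*, 12.39 ± 0.15 for *Gli*, 10.36 ± 0.33 for *nrv2* and 11.19 ± 0.28 for *Gs2*, all far above the median of all values. *gcm* was the exception, at 5.32 ± 0.25 in wild type (SD, n = 3), next to that median. The second Gcm factor of the fly, *gcm2*, averaged 3.94 ± 0.07 in the mutant and 4.07 ± 0.17 in wild type (SD, n = 3 each), under the first quartile in both genotypes.

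None of the 7 glial genes passed the threshold between genotypes, a limma p of at most 0.05 after Benjamini-Hochberg adjustment over all 18769 probe sets. Of all probe sets 1.6% passed it, 0.783% with higher and 0.815% with lower values in the mutant. Mean values were higher in the mutant for 5 of the 7 glial genes and lower for 2, while 49.7% of all probe sets were higher, and the median log2 difference was 0.21, against 0.00 over all probe sets. Unadjusted limma p-values were under 0.05 for 2 of the 7, *Gli* and *loco*, both with higher values in the mutant. The same held for 5.91% of all probe sets with higher values in the mutant and for 5.88% with lower values. With 3 arrays on each side, the smallest p of an exact permutation test is 0.1. In bulk RNA, a change in the number of glia and a change in RNA per glial cell cannot be told apart.

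Of the transcription factors of glial fate, *repo* had log2 values of 8.64, 8.71 and 8.98 in the mutant and 8.43, 8.70 and 8.76 in wild type. The genotypes overlapped, with 1 wild type array low and 1 mutant array high. The log2 difference was 0.15 (standard error 0.13, 95% interval -0.16 to 0.45, adjusted p = 0.778 from limma), a fold of 1.11 with an interval of 0.897 to 1.37. A doubling or halving of *repo* thus lay outside the interval. Without wild type replicate 1, and likewise without mutant replicate 3, the log2 difference was 0.05. *gcm* stood at 5.19, 5.11 and 5.15 in the mutant and 5.05, 5.38 and 5.54 in wild type. The mutant values were close together and fell within the wild type range, and the log2 difference was -0.17 (standard error 0.13, 95% interval -0.48 to 0.13, adjusted p = 0.715 from limma). Without wild type replicate 1, the lowest of the 6, it was -0.31 (adjusted p = 0.203 from limma), and without wild type replicate 3 it was -0.06 (adjusted p = 0.827).

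**Figure D1:**
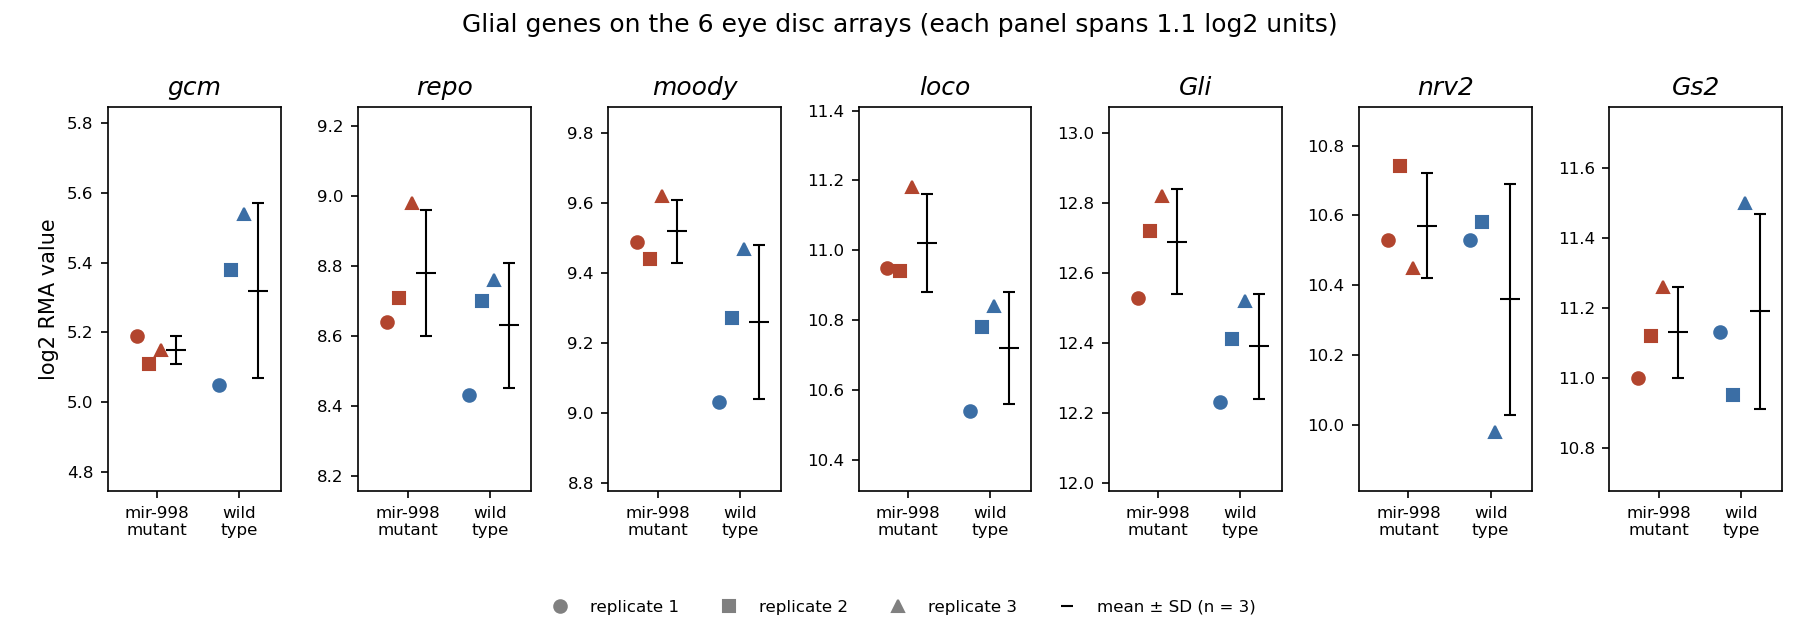
Log2 RMA values of the 7 glial genes on the 3 mir-998 mutant arrays and the 3 wild type arrays, with each symbol 1 array, bars the mean ± SD (n = 3), and each panel on its own scale of equal height. Mutant values lie above all wild type values only for Gli and loco, and wild type replicate 1 is the lowest array for gcm, repo, moody, loco and Gli.

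*moody*, *loco* and *Gli* act in the glial barrier. Moody is a G protein-coupled receptor, Loco an RGS protein that acts on the same G proteins, and Gliotactin, the product of *Gli*, a protein of the junctions where 3 cells meet. *moody* had log2 values of 9.49, 9.44 and 9.62 in the mutant and 9.03, 9.27 and 9.47 in wild type. The highest wild type array lay just above the lowest mutant array, and the log2 difference was 0.26 (standard error 0.12, 95% interval -0.03 to 0.55, adjusted p = 0.495 from limma). *loco* stood at 10.95, 10.94 and 11.18 in the mutant and 10.54, 10.78 and 10.84 in wild type. All mutant values lay above all wild type values, by a gap of 0.10, with a log2 difference of 0.30 (standard error 0.11, 95% interval 0.04 to 0.57, adjusted p = 0.339 from limma). *Gli* stood at 12.53, 12.72 and 12.82 in the mutant and 12.23, 12.41 and 12.52 in wild type. Its genotypes were also apart, but by a gap of only 0.01, with a log2 difference of 0.30 (standard error 0.11, 95% interval 0.04 to 0.57, adjusted p = 0.339 from limma). For both genes this is a fold of 1.23 (95% interval 1.03 to 1.48), and the exact permutation test gave p = 0.1 (two-sided). Mutant arrays lay wholly above wild type arrays for 2 of the 7 genes, and for 7.97% of all probe sets, and 16.0% of all probe sets had no overlap in either direction. An absolute difference as large as that of *Gli* or *loco* was held by 12.1% of all probe sets. Wild type replicate 1 was lowest for all 3 genes, and without it the log2 differences were 0.15 for *moody*, 0.21 for *loco* and 0.23 for *Gli* (adjusted p of 0.505 or more from limma).

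The remaining pair are general working genes of glia and of other cells. *nrv2* encodes a beta subunit of the sodium pump that is also a septate junction component, and its log2 values were 10.53, 10.74 and 10.45 in the mutant and 10.53, 10.58 and 9.98 in wild type. Only wild type replicate 3 stood apart, at the bottom. The log2 difference of 0.21 (standard error 0.17, 95% interval -0.21 to 0.63, adjusted p = 0.767 from limma) came to 0.02 without that array. *Gs2* encodes a glutamine synthetase, the enzyme that turns glutamate taken up by glia into glutamine, and stood at 11.00, 11.12 and 11.26 in the mutant and 11.13, 10.95 and 11.50 in wild type. The wild type arrays enclosed all mutant values. The log2 difference was -0.07 (standard error 0.15, 95% interval -0.43 to 0.30, adjusted p = 0.933 from limma), and it was 0.09 without wild type replicate 3, where *Gs2* was highest.

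**Figure D2:**
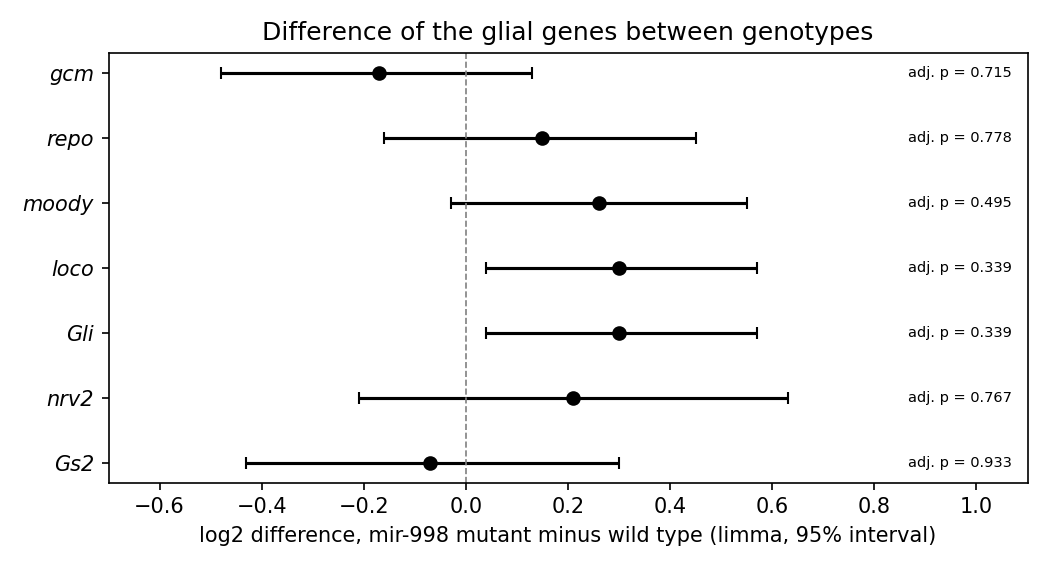
Log2 difference of each glial gene, mir-998 mutant minus wild type (points), with its 95% interval from limma (bars) and the p adjusted over all 18769 probe sets. The intervals of Gli and loco run from 0.04 to 0.57 and those of the other 5 genes include 0, with adjusted p-values of 0.339 to 0.933.

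Among themselves the glial genes fell into different patterns over the 6 arrays. *repo*, *moody*, *loco* and *Gli* went up and down together, with Pearson r over the 6 arrays of 0.87 between *repo* and *moody*, 0.87 between *repo* and *Gli* and 0.90 between *repo* and *loco*. For the same pairs Spearman's rho was 0.66, 0.71 and 0.60. These are descriptions over 6 points that share the difference between genotypes. The spread within a genotype was alike for the 4 genes. Mutant replicate 3 lay above the mutant mean by 0.20 for *repo*, 0.10 for *moody*, 0.16 for *loco* and 0.13 for *Gli*. Wild type replicate 1 lay below the wild type mean for each, with deviations of -0.20, -0.23, -0.18 and -0.16 in the same order. Mutant replicate 1 deviated by -0.14, -0.03, -0.07 and -0.16, and wild type replicate 3 by 0.13, 0.21, 0.12 and 0.13. For these genes replicate 1 was thus below and replicate 3 above the mean in both genotypes. What arrays of 1 number share was not tested. Wild type replicate 1 held the lowest value of 5 of the 7 glial genes and of 21.6% of all probe sets. *nrv2* did not follow, with an r of -0.23 with *repo* and of -0.83 with *Gs2*.

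The array on which *nrv2* was lowest, wild type replicate 3, was also the lowest for 14 of 19 other septate junction and barrier genes and for 9 of 12 eye disc markers, against 18.2% of all probe sets. *repo*, *moody*, *loco*, *Gli*, *gcm* and *Gs2* were each higher there than their wild type mean, by 0.13, 0.21, 0.12, 0.13, 0.22 and 0.31 on the log2 scale. The same array held the highest value of the 6 arrays for 2 of the 7 glial genes, or 28.6%, and for 24.3% of all probe sets. How many of all probe sets lay above their wild type mean there was not counted. On this array, then, most of the listed junction and eye disc genes had their lowest value. Of the 7 glial genes it was lowest for 1, *nrv2*, which is near the share of all probe sets, 18.2%. The glial genes as a set were thus neither low there nor set apart from the array as a whole by this count. *Gli*, one of the other 6, is itself a junction gene that also serves the epithelium.

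**Figure D3:**
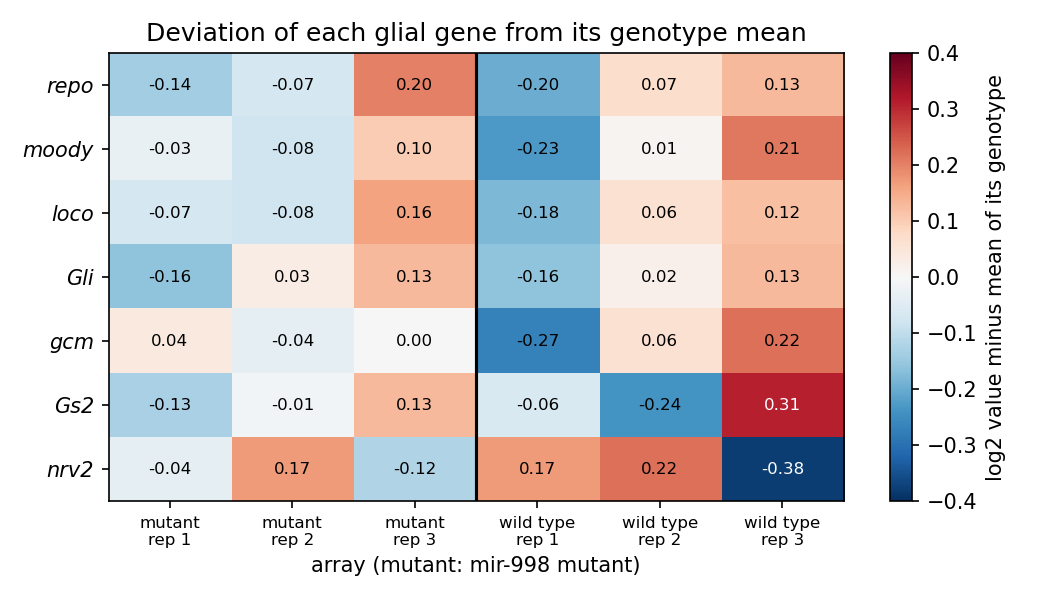
Deviation of each glial gene from the mean of its own genotype on each of the 6 arrays, in log2 units (red above, blue below). Wild type replicate 1 is blue for all genes but nrv2, and on wild type replicate 3 nrv2 is at -0.38 while Gs2 is at 0.31.

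The 5 genes most like *repo* over the 6 arrays were *Mps1* (Pearson r = 0.992), *CG15747* (0.99), *Taf6* (0.989), *Pbp95* (0.987) and *ca* (0.985), among 3900 genes that ranged over at least 0.5. Mps1 is a kinase of the spindle checkpoint and Taf6 a subunit of the general transcription factor TFIID. In the same ranking *loco* stood at 166, *moody* at 235 and *Gli* at 245, and 163 genes had an r of at least 0.9 with *repo*, so the pattern was not particular to glial genes. *Mps1*, for example, had log2 values of 7.79, 7.82 and 8.07 in the mutant and 7.53, 7.84 and 7.88 in wild type, and its log2 difference was 0.14 (adjusted p = 0.78 from limma).

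Other genes of glia were read from 6 lists of 70 genes, of which 57 had a probe set named for them alone. Not one of the 57 passed limma. For 5 of them, or 8.77%, the p before adjustment was under 0.05, against 11.8% of all probe sets. The median log2 difference over the 57 was 0.04, with 31 values above 0 and 26 below. For 51 of the 57 the 95% interval lay within 1 log2 unit of 0.

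Of 3 further transcription factors, *pros*, which encodes the homeodomain protein Prospero, found in glia and in photoreceptor and cone cell precursors, had values of 9.13, 9.02 and 9.38 in the mutant and 8.20, 8.71 and 8.74 in wild type. Its mutant arrays lay above its wild type arrays, with a log2 difference of 0.63 (standard error 0.17, adjusted p = 0.195 from limma). *gcm2* had a log2 difference of -0.13 (standard error 0.10, adjusted p = 0.737).

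Of 3 genes of G protein signaling beside *moody* and *loco*, *Galphai*, which encodes the inhibitory alpha subunit, stood at 11.64, 11.72 and 11.70 in the mutant and 11.45, 11.49 and 11.51 in wild type. The genotypes did not overlap, with a log2 difference of 0.20 (standard error 0.06, adjusted p = 0.23 from limma). *pins*, whose product binds the same subunit, had a log2 difference of 0.21 (standard error 0.08, adjusted p = 0.41).

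The 19 septate junction and barrier genes differed little between genotypes, with a median log2 difference of 0.05 and none with an unadjusted p under 0.05. *M6*, a tetraspan membrane protein of the tricellular junctions, had the smallest p, at 8.88, 9.53 and 9.00 in the mutant and 10.61, 9.59 and 9.10 in wild type. The log2 difference was -0.63 (standard error 0.39, adjusted p = 0.643 from limma), and -0.21 without wild type replicate 1, the highest array. *nrv3*, another sodium pump beta subunit, had a log2 difference of 0.41 (standard error 0.27, adjusted p = 0.669), with wild type replicate 3 at 8.39 and all other arrays at 9.16 or above, and it was 0.10 without that array. *Mdr65*, an ABC transporter of the fly blood-brain barrier, was measured at 7.26 ± 0.22 in the mutant and 7.32 ± 0.22 in wild type (SD, n = 3 each), with a log2 difference of -0.06 (adjusted p = 0.943).

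Of 15 genes on a list of transmitter uptake and astrocyte genes, 7 lay under the median of all values in wild type, 3 of them under the first quartile. These 3 were *alrm*, a marker of larval astrocytes at 3.81 ± 0.04 in the mutant and 3.93 ± 0.15 in wild type, *Gat*, the GABA transporter at 4.01 ± 0.06 in the mutant and 4.16 ± 0.10 in wild type, and *Gabat*, the GABA transaminase at 3.90 ± 0.09 in the mutant and 4.05 ± 0.10 in wild type (SD, n = 3 each). Values this low cannot show how little of a transcript was present. Differences in the list were mostly negative, in 11 of 15 genes, with a median of -0.13, and none passed limma. Of all 18769 probe sets 9441 were negative. The 7 genes under the median of all values were all negative but *Eaat2* (0.04), so much of the count comes from dim probe sets. *zyd*, an ion exchanger of cortex glia, had the smallest p, with 6.01, 5.85 and 5.85 in the mutant and 6.15, 6.00 and 6.25 in wild type, so that the ranges barely overlap (log2 difference -0.23, standard error 0.09, adjusted p = 0.382 from limma). *Gs1*, the second glutamine synthetase gene, stood at 10.05, 10.07 and 9.90 in the mutant and 10.40, 10.09 and 11.15 in wild type. All wild type values were higher than all mutant values, and as for *Gs2* the highest was wild type replicate 3 (log2 difference -0.54, standard error 0.26, adjusted p = 0.504). Without that array the log2 difference of *Gs1* was -0.24, and with array weights it was -0.31.

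Of 6 engulfment genes, *drpr*, which encodes the receptor Draper with which glia clear debris, had the smallest p, with 11.16 ± 0.11 in the mutant and 11.01 ± 0.16 in wild type (SD, n = 3 each, log2 difference 0.15, adjusted p = 0.685 from limma), and the difference was 0.07 without wild type replicate 1. *NimC4*, a receptor for apoptotic cells, had a log2 difference of -0.09 (adjusted p = 0.772). Of 11 genes of FGF signaling, guidance and matrix, *robo1*, a receptor of axon guidance, had a log2 difference of 0.21 (adjusted p = 0.623), which was 0.09 without wild type replicate 1 and 0.32 without wild type replicate 2. *Timp*, an inhibitor of matrix metalloproteases, stood at 8.94, 9.02 and 8.90 in the mutant and 9.98, 9.70 and 9.32 in wild type. All wild type values were higher than all mutant values, and the log2 difference of -0.71 (standard error 0.16) did not pass limma (adjusted p = 0.124). A second *Timp* probe set had a log2 difference of -0.90 (adjusted p = 0.343). Without wild type replicate 3 the brighter probe set passed, with a log2 difference of -0.89 (adjusted p = 0.0196 from limma), as it did with array weights (-0.74, adjusted p = 0.0263).

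**Figure D4:**
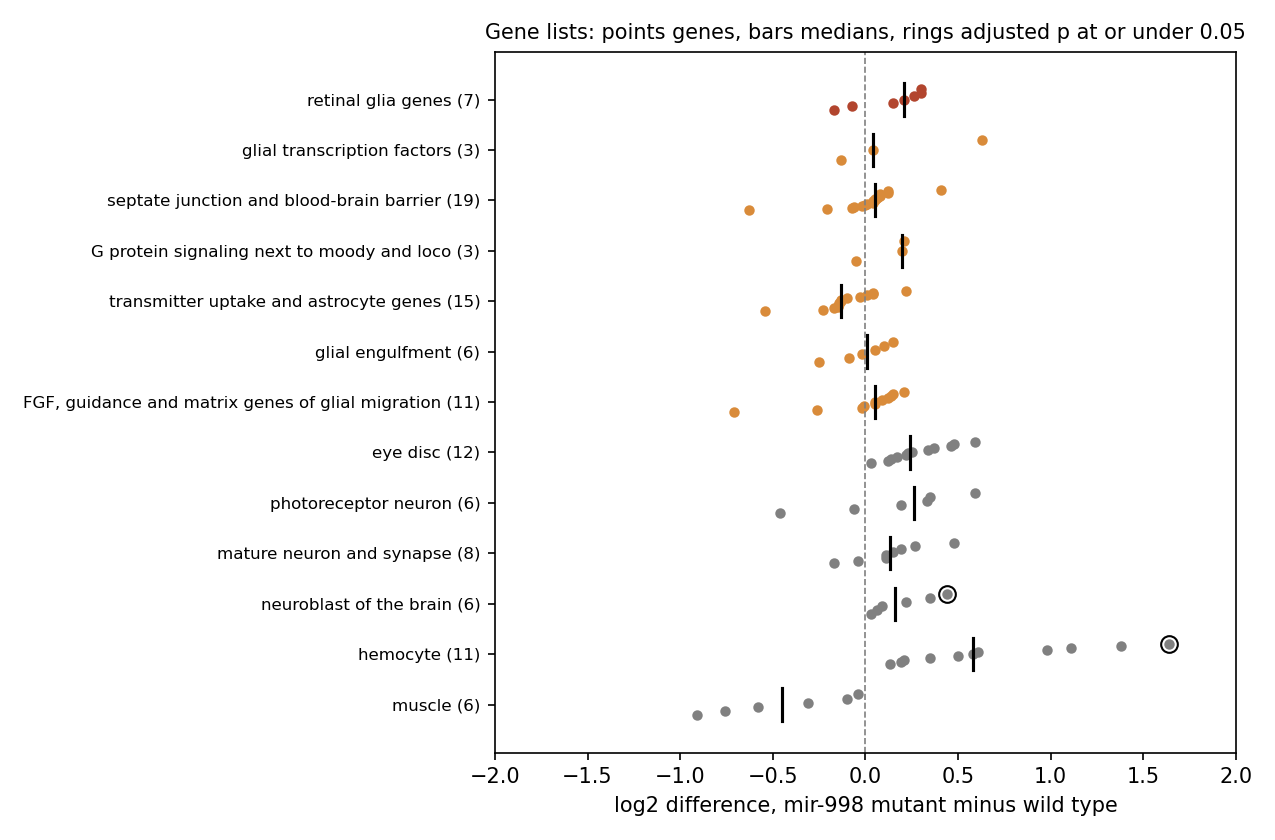
Log2 difference of each measured gene, mir-998 mutant minus wild type, for the retinal glia genes, 6 further lists of glial genes and 6 lists of markers of other cells (number of genes in parentheses, black bars the medians, rings genes past an adjusted p of 0.05). No glial gene is ringed, and the rings mark mira at 0.44 and NimC1 at 1.64.

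Markers of other cells also differed in their medians, to different degrees from list to list. The 12 eye disc markers had a median log2 difference of 0.24, with all 12 above 0 and none past limma, *lz* the largest at 0.59 (adjusted p = 0.169). The 6 photoreceptor neuron markers had a median of 0.26, with 4 above 0 and 2 below, from -0.46 for *nrm* to 0.59 for *futsch*. Each of these 2 values is from the brightest of 3 probe sets. The others stood at 0.08 and 0.38 for *nrm* and at 0.06 and -0.02 for *futsch*. None of the 6 markers passed limma, and the list averaged 8.78 to 9.04 in the mutant and 8.35 to 9.07 in wild type. Without wild type replicate 3, a fit of the marker lists added after the data were seen, the medians were 0.04 for eye disc and -0.01 for photoreceptor neuron markers, and without wild type replicate 1 they were 0.34 and 0.18. The median of the 7 glial genes was 0.21 without wild type replicate 3 and 0.15 without wild type replicate 1. Single genes behind that 0.21 differed from the fit to all arrays, with *nrv2* at 0.02 and *moody* at 0.37 without wild type replicate 3. The 6 neuroblast markers had a median of 0.16. Of these only *mira*, an adaptor protein of dividing neuroblasts, passed, with higher values in the mutant (log2 difference 0.44, standard error 0.06, adjusted p = 0.0249 from limma). In wild type 5 of the 6 lay above the median of all values, but *wor*, at 4.30 ± 0.14 (SD, n = 3), lay under it. Synaptic genes are a sign of brain tissue or of maturing neurons. The 8 read averaged 6.02 to 6.17 in the mutant and 5.81 to 6.08 in wild type, with a median log2 difference of 0.13. Wild type replicate 1 was lowest for 5 of the 8, with *brp* at 6.69, and for 21.6% of all probe sets. It was highest for 2 others, *nSyb* at 6.84 and *ChAT* at 5.34, and for 22.1% of all probe sets. Of the 7 glial genes 5 were lowest there too. The part of synaptic genes in the glial values was not tested.

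All 11 hemocyte markers, genes of blood cells, had higher means in the mutant. Of these 1 passed limma, *NimC1* (log2 difference 1.64, standard error 0.26, adjusted p = 0.0369), the median log2 difference was 0.58 (0.73 without wild type replicate 1 and 0.73 without wild type replicate 3), and the list averaged 7.99 to 8.30 in the mutant and 7.03 to 7.74 in wild type. All 11 lay above the median of all values in wild type, *PPO2* the brightest at 10.18 ± 0.04 in the mutant and 9.07 ± 0.54 in wild type (SD, n = 3 each). The hemocyte markers were lowest on wild type replicate 2 in 8 of 11 cases. Over all probe sets this array was lowest for 3246 of 18769. Of the 7 glial genes it was lowest for 1, *Gs2*, which is near that share. The 6 muscle genes had a median of -0.45, with *Mlc2* at -0.91 (adjusted p = 0.102), and averaged 9.45 to 9.84 in the mutant and 9.80 to 10.20 in wild type. The part of hemocytes and muscle in the glial values was not tested.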

How the data were processed

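The deposited table holds log2 values of 18952 probe sets on 6 Affymetrix Drosophila arrays. The authors made them in the affy package by rma, which corrects the background, quantile normalizes the arrays and summarizes the probes of a probe set. This normalization hides any shift shared by most genes. No read depth exists for arrays, and their number limits the precision.

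After removal of 183 control probe sets, a linear model of mutant against wild type without covariates was fitted to 18769 probe sets in R 4.3.3 (limma 3.58.1, moderated by eBayes), with Benjamini-Hochberg adjustment over all of them and a threshold of 0.05, as in the study's methods. A platform annotation, with symbols updated through RefSeq (Release 6), named 1 gene for 13647 probe sets, several for 402 and none for 4720. A gene was read from its brightest probe set, and low values were not removed. Alternatives were further normalization, weighted arrays, removal of dim probe sets, a replicate block, other choices of probe set or threshold, and leaving out each array. The fit was tested on simulated arrays.

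The glial genes and all lists were chosen with earlier results of these data known. Named were all glial genes, up to 4 called members of each list or the 2 with the smallest p, the 5 genes most like *repo*, and the brightest and most changed marker of each list where a result touches it. *Mdr65*, *alrm*, *Gat* and *Gabat* were named after their values were seen. No promoter, protein or miRNA sequence was used here.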

Additional observations from a re-analysis of the deposited data

How the results depend on the processing

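No glial gene passed the threshold in any of the 16 alternatives, with adjusted p-values from 0.137 to 0.998 from limma, and *repo*, *moody*, *Gli*, *loco* and *nrv2* kept values above 0 and *gcm* below 0 throughout. The sign of *Gs2* was reversed with array weights (0.03) and without wild type replicate 3. With 1 array left out, log2 differences ran from 0.05 to 0.22 for *repo*, 0.15 to 0.37 for *moody*, 0.23 to 0.38 for *Gli*, 0.21 to 0.36 for *loco*, 0.02 to 0.32 for *nrv2*, -0.19 to 0.09 for *Gs2* and -0.31 to -0.06 for *gcm*. *gcm* drops out when dim probe sets are removed. The median over the glial genes was 0.14 to 0.27 in all alternatives. All probe sets past the threshold numbered 300, 477 with array weights, 119 at an adjusted p of 0.01, 485 at 0.1, and 127 to 412 with 1 array left out. Of the list of FGF, guidance and matrix genes 1, *Timp*, passed with array weights and 0 to 1 with 1 array left out. Deviations of same-numbered arrays had r of 0.19, -0.23 and 0.29 over all probe sets. The 0.29, for the replicate 3 arrays, was the highest of any mutant and wild type pair. Mutant replicate 2 deviated most like wild type replicate 1 (0.22). What arrays of 1 number share was not tested. The replicate block gave each glial gene a smaller standard error, as for *Gli* with 0.06 against 0.11. With the replicate block 300 probe sets passed, no glial gene among them (*Gli* 0.30, adjusted p = 0.137; *loco* 0.30, adjusted p = 0.213).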
